A study of Mus with 2 samples.

Results

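The cells described here are stromal cells of the newborn mouse kidney that carried Igfbp3, Cxcl14, Kcnk2 or Dpep1 transcripts. A cell barcode was a member when it held at least 3 unique molecular identifiers (UMIs, each 1 counted RNA molecule) of these 4 genes together, at least 3 of the fibrillar collagen genes Col1a2 and Col3a1 together, and at least 1 of EYFP. It also held no UMI of the epithelial gene Epcam or the endothelial gene Pecam1, and at most 1 UMI of Top2a, a gene of dividing cells. The summed UMIs of each of 3 other stromal marker sets were limited to 1: Foxd1, Ntn1, Rspo3, Scx and Gdnf; Cck, Corin, Nts and Fzd10; and Clec3b and Dpt. The rule kept 396 of 11369 barcodes, 233 of 6220 in replicate 1 and 163 of 5149 in replicate 2. Members made up 16.1% of the EYFP stroma in replicate 1 (exact binomial 95% interval 14.2% to 18.0%) and 13.9% in replicate 2 (12% to 16%). The comparison group was the remaining stroma, all other barcodes with EYFP and at least 3 collagen UMIs, which numbered 1218 and 1011.

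Interstitial stroma fills the space between nephrons, ducts and vessels, lays down their matrix and gives rise to fibroblasts, pericytes and other perivascular cells. During development it is patterned from the outer nephrogenic zone, where Foxd1-expressing progenitors lie, to the inner medulla. Igfbp3 encodes a secreted protein that binds insulin-like growth factors, Cxcl14 a chemokine, Kcnk2 a potassium channel that sets resting membrane potential, and Dpep1 a membrane dipeptidase that splits dipeptides derived from glutathione. Agtr1a, a marker named for these cells but not used to choose them, encodes the main receptor for the vasoconstrictor angiotensin II.

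Single-cell RNA sequencing was done with 10x Chromium 3' libraries from 2 kidney samples of postnatal day 0 mice, both labelled with the genotype Rbpj c/- ; Foxd1cre/+. Rbpj encodes the DNA-binding partner of the Notch receptors, and Foxd1cre places Cre recombinase in the Foxd1 lineage, the progenitors of kidney stroma. The series design also names 2 controls (Rbpj c/+ ; Foxd1cre/+), which were not analysed here, so members and comparison cells share the genotype and no value measures the effect of losing Rbpj. The labels do not say whether kidneys were pooled. They also do not say what EYFP reports; 56.9% and 46.4% of barcodes gated as podocytes carried an EYFP UMI, against 3.31% and 0.397% of those gated as erythroid.

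The matrices held 163405630 UMIs in replicate 1 and 135436576 in replicate 2. Members had a median of 8479 and 8502 UMIs and 2914 and 2893 genes, the remaining stroma 10952 and 10492 UMIs. The libraries shared 6 kept barcodes, and no barcode of a member. The most doublet-like barcodes by Scrublet score included 2 and 1 members (0.858% and 0.613%) and 94 and 58 remaining stroma barcodes (7.72% and 5.74%). Replicate 1 carried Xist and no Ddx3y, and replicate 2 carried Ddx3y with Xist at 0.196 UMIs per 1000000 UMIs (CPM). Rbpj itself stood at 30.6 and 23.3 CPM in the members and 34.0 and 33.0 CPM in the remaining stroma (log2 fold change -0.14 ± 0.18 (SE), adjusted p = 0.61). Counts from 3' ends do not tell whether an internal exon is missing, so this does not check the deletion.

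Igfbp3 (chromosome 11, 7206086 to 7215498, mm10) carried most of the marker signal. Its level was 1000.4 and 1004 CPM in the members, 92.3% and 92.0% of members held a UMI of it, and 80.3% and 79.1% of members reached the limit of 3 UMIs on Igfbp3 alone. A UMI of Igfbp3 was also found in 44.0% and 42.0% of the remaining stroma. Cxcl14 (chromosome 13, 56288643 to 56296811) was at 147 and 189.6 CPM, but in 23.2% and 32.5% of members, so most members had none. Kcnk2 (chromosome 1, 189207930 to 189402782) was at 84.5 and 91.2 CPM and in 40.8% and 38% of members. Dpep1 (chromosome 8, 123186235 to 123201812) was at 140.3 and 70.0 CPM and in 54.1% and 35.6%, so its level and share were higher in replicate 1. Igfbp3 gave 72.9% and 74.1% of the UMIs of the 4 markers. A single marker was detected in 60 and 61 members, 2 markers in 101 and 52, 3 in 60 and 42, and all 4 in 12 and 8. Since the label names Cxcl14 beside Igfbp3 while only a minority of members carried Cxcl14, the cells are called Igfbp3-gated stroma below. All these values belong to the rule and are given as a description.

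The 4 markers were not confined to stroma. Igfbp3 stood at 189 and 132 CPM in barcodes gated as endothelial, and Cxcl14 at 95.6 and 86.3 CPM in those gated as immune cells. Kcnk2 reached 14.9 and 15.4 CPM in nephron progenitors, while Dpep1 was at or below 4.03 CPM in every gated class other than stroma. Erythroid barcodes, which should lack all 4 genes, held a UMI of Igfbp3 in 3.01% and 2.38% and of Cxcl14 in 3.01% and 1.59% of barcodes, with a median depth of 6308 UMIs in replicate 1.

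**Figure D1:**
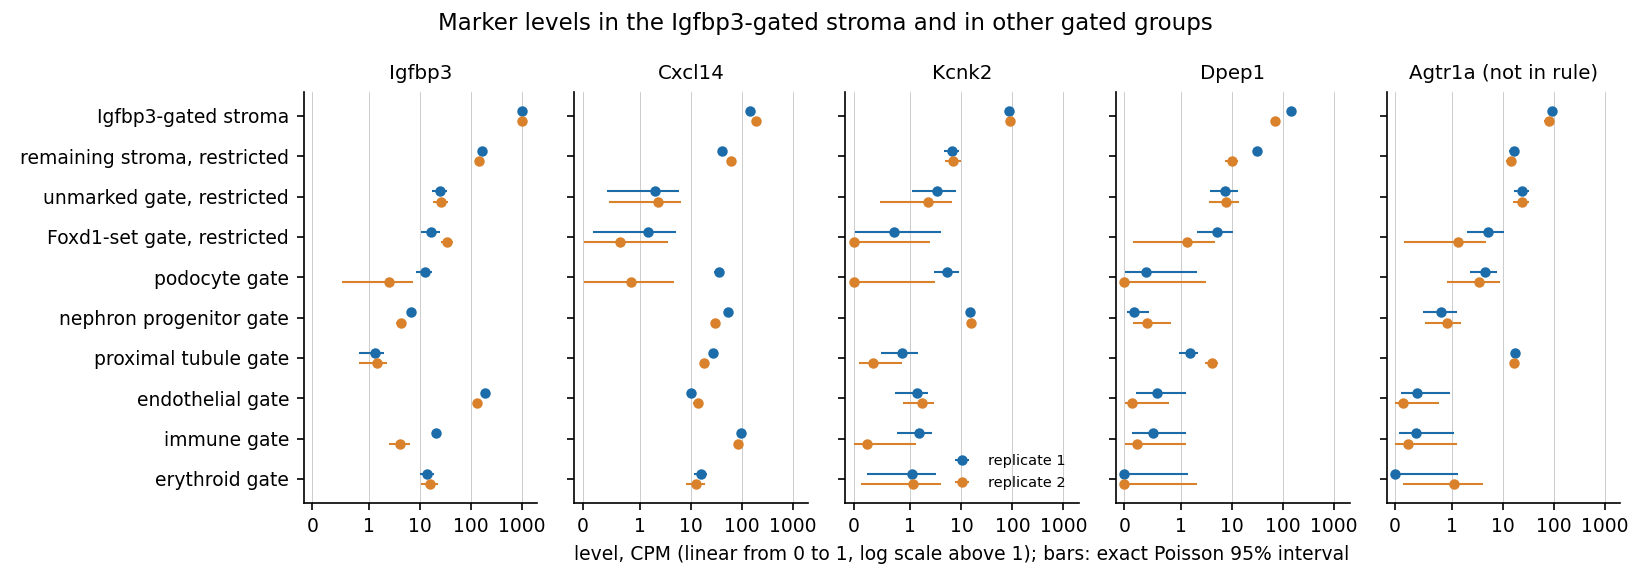
Level of each marker (CPM, linear up to 1 and logarithmic above) in the Igfbp3-gated stroma and 9 other gated groups, 1 point per library with its exact Poisson 95% interval. Igfbp3 is near 1000 CPM in both libraries of the gated stroma, and Agtr1a, which the rule did not use, is also higher there than in every other group drawn.

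Agtr1a was the one named marker outside the rule, so it was left in the tests. It was named with earlier results of these data known, so its test is no independent support for the gate. This receptor gene (chromosome 13, 30336356 to 30382867) stood at 90.3 and 79.5 CPM in the Igfbp3-gated stroma and 11.8 and 8.56 CPM in the remaining stroma. Both libraries of the gated stroma were above both of the remaining stroma, with a log2 fold change of 3.20 ± 0.16 (SE) (edgeR quasi-likelihood test, adjusted p = 3.3e-85). It was detected in 42.1% and 36.8% of members and 10.7% and 7.62% of remaining barcodes, and in 29.3% and 28.3% against 5.96% and 4.27% over the members and remaining barcodes with at least 5000 UMIs, each thinned to 5000. This left out 25 and 18 members and 44 and 50 remaining barcodes as too shallow. In erythroid barcodes the share was 0% and 0.794% before thinning. Among the gated classes outside stroma, proximal tubule barcodes came next, at 17.0 and 16.5 CPM.

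The remaining stroma, as the rule defines it, contained many barcodes with markers of other cell types. More than 1 UMI of at least 1 of 7 marker sets (podocyte, nephron progenitor, proximal tubule, endothelial, immune, distal and ureteric, erythroid) was found in 25.3% and 18.5% of its barcodes and in 2.58% and 3.68% of the gated stroma. Summed podocyte markers were at 2126 and 2397 CPM in the remaining stroma and 66.5 and 146 CPM in the gated stroma. The remaining stroma also had no limit on Top2a. A restricted comparison was therefore added after these values were seen, in which both groups met the same limits on Epcam, Pecam1 and Top2a and barcodes with such markers were left out. It kept 227 and 157 members and 559 and 544 remaining barcodes, and the podocyte sums became 63.8 and 58.6 CPM in the gated stroma and 77.7 and 74.3 CPM in the remaining stroma. Below, "restricted" always means this one, and counts of gene lists are given in both forms.

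In the restricted groups, endothelial markers summed to 79.8 and 76.0 CPM in the gated stroma and 62.6 and 57.3 CPM in the remaining stroma, and immune markers to 11.5 and 14.4 against 9.02 and 7.31 CPM, with Ptprc and Cd52 at 0 in the gated stroma. Erythroid markers summed to 302 and 323 against 746 and 236 CPM, so the order of the groups differed between the libraries. Of 6 neural crest and glial markers 1 was detected in the gated stroma, and the list summed to 5.52 and 6.84 against 11.8 and 2.96 CPM, again in a different order in the 2 libraries. Sox10, Tubb3 and Th of that list were at 0 in both groups. The part of these low signals in the differences below was not tested.

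Against all remaining stroma, 2248 of 13254 tested genes were higher in the Igfbp3-gated stroma (17.0%) and 2572 were lower (19.4%), 36.4% in either direction, at adjusted p under 0.05 in edgeR's quasi-likelihood test with library as a block. In the restricted comparison 1304 of 11284 were higher (11.6%) and 1322 were lower (11.7%), 23.3% in either direction. Of the genes higher against all remaining stroma, 1089 were also higher when restricted, which is 48.4% of the first list and 83.5% of the second. For lower genes the shared number was 814, 31.6% and 61.6%. Another 39 higher and 34 lower genes were called in the opposite direction when restricted. Because members were chosen by the expression of 4 genes in the same cells, genes that accompany those 4 had to differ. The limits on the Foxd1, Cck and Clec3b sets held for the members and not for the remaining stroma, restricted or not, so genes that accompany those sets had to be lower in the members too. The tests set a difference in summed UMIs against its variation between the 2 libraries. A call does not require the same direction in both. Of 4820 genes called against all remaining stroma, 4721 had the same direction in both libraries. Of 2626 called when restricted, 2611 did. The fit has 1 residual degree of freedom, and nothing in the labels says that the libraries came from separate litters. The p-values thus measure how far the difference between the groups varied between these 2 samples.

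Among the genes with the largest higher levels, chosen by fold change among called genes of sufficient level, C7, a complement component, was at 25.6 and 26.6 CPM in the restricted gated stroma and 2.76 and 1.78 CPM in the restricted remaining stroma, a log2 fold change of 3.51 ± 0.33 (SE). Hhip, which encodes an inhibitor that binds hedgehog ligands, was at 34.1 and 36.5 against 6.44 and 5.14 CPM (2.61 ± 0.24 (SE)). Nrp2, a co-receptor for semaphorins and vascular growth factors, was at 98.9 and 127 against 20.8 and 21.3 CPM (2.43 ± 0.14 (SE)). In each of these genes the lower of the 2 gated values was more than 3 times the higher remaining value. The genes were selected for large differences in the same direction in both libraries, so this separation is no further support.

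Other genes of that selection were higher by smaller folds when restricted. Thbs2, a thrombospondin of the matrix, was at 296 and 442 against 82.8 and 73.9 CPM, with log2 fold changes of 3.24 and 2.22 against all and restricted remaining stroma. Clca3a1 was at 308 and 225 against 67.2 and 43.7 CPM (3.06 and 2.29). Cldn11, a claudin, was at 77.8 and 117 against 16.8 and 30.2 CPM (3.05 and 2.09). Scube2 (3.32 and 2.19), Adora2b, an adenosine receptor (3.0 and 2.17), Syt13 (3.27 and 2.42) and Fbln7, a fibulin (2.35 and 2.31), were higher in both forms of the comparison. The levels of these 4 in the gated stroma lay between 14.4 and 38 CPM.

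The genes with the largest lower levels were different in the 2 forms of the comparison, with none of the first 12 in common. Against all remaining stroma they included Crb2, with 0 UMIs in the gated stroma and 413 and 320 in the remaining stroma, which is at least 23.5-fold lower with a floor of 3 UMIs over the group. R3hdml (1.46 and 1.46 against 138 and 171 CPM), Pcp4 (2.91 and 2.19 against 203 and 273 CPM), Ptpro (0.971 and 4.38 against 88.1 and 135 CPM), Nebl, Wipf3, Tmem150c and Lmx1b were also among them; Crb2, Ptpro and Lmx1b are known podocyte genes, and the podocyte sums are given above. Depdc1a, Esco2, Aurkb and Gas2l3, genes of mitosis and chromosome segregation, were the others, and Top2a was limited in the members only.

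When restricted, Igfbp6 had the largest lower value. Igfbp6, which encodes a binding protein with preference for IGF-II, had 3 and 3 UMIs in the gated stroma and 455 and 395 in the remaining stroma, 1.51 and 2.28 against 83.8 and 78 CPM, a log2 fold change of -5.44 ± 0.29 (SE). Dlk1, a membrane protein related to Notch ligands, was at 27.1 and 25.9 against 271 and 261 CPM (-3.30 ± 0.12 (SE)). Tnxb, which encodes tenascin-X, was at 0.502 and 3.04 against 32.2 and 33.0 CPM, and Cd34, a sialomucin of fibroblasts and vessels, at 3.51 and 2.28 against 35.7 and 33.2 CPM. Igfbp6, Tnxb and Cd34 were thus under 5 CPM in both gated libraries. All 4 genes were selected for large differences in the same direction, so the separation of their values is a description. Cthrc1 (-4.06), the adhesion gene Cadm1 (-4.03), the aldehyde oxidase Aox3 (-2.93), Nov (-2.74), A230065H16Rik (-2.58) and Dock11 (-2.51) were also lower.

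**Figure D2:**
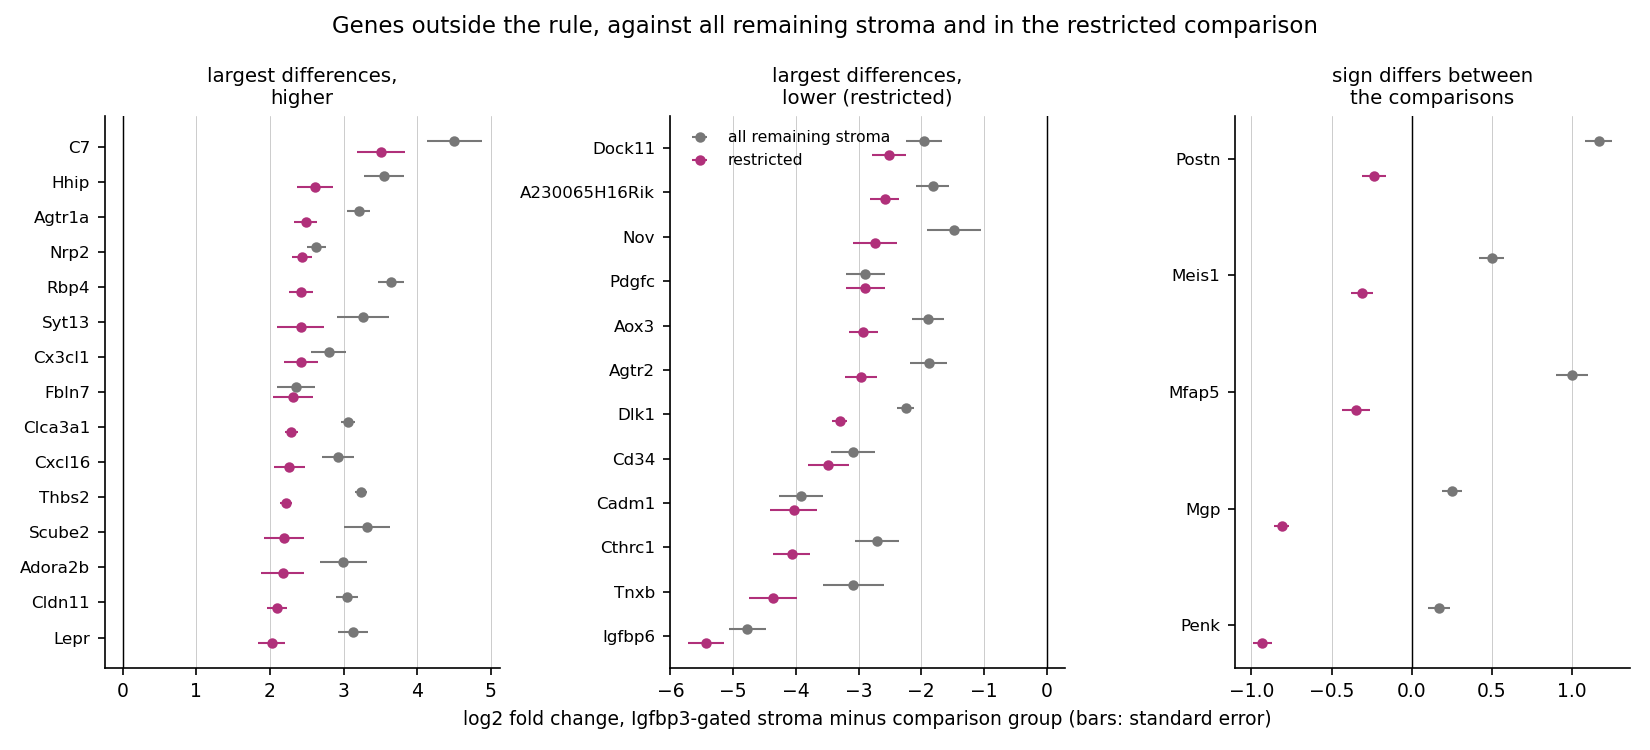
Log2 fold change (x axis, with its standard error) of genes outside the rule, for the Igfbp3-gated stroma against all remaining stroma (grey) and in the restricted comparison (magenta). Of the genes shown, C7 is farthest to the right and Igfbp6 farthest to the left in both, while the right panel shows 5 genes, picked after their values were seen, whose sign differs between the comparisons.

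Of 8 renin-angiotensin genes tested in the restricted comparison, 4 were higher and 2 lower (of 10 against all remaining stroma, 4 and 4). For this and the following lists, the shares over all genes were 11.6% higher and 11.7% lower when restricted and 17.0% and 19.4% against all. Agtr1a was at 90.9 and 77.6 CPM in the gated stroma and 16.2 and 14.4 CPM in the remaining stroma, 2.48 ± 0.16 (SE) on the log2 scale. The other angiotensin II receptor gene, Agtr2, was at 3.51 and 9.13 against 45.1 and 47.0 CPM, -2.96 ± 0.26 (SE) (adjusted p = 4.8e-28). So both gated libraries were above the remaining stroma for Agtr1a and below it for Agtr2. Ren1, which encodes renin, was low, at 7.03 and 9.89 against 1.47 and 1.38 CPM (14 and 13 UMIs in the gated stroma). Mme, which encodes neprilysin, was lower at 73.8 and 60.8 against 152 and 111 CPM. Enpep, an aminopeptidase of the same system, was higher when restricted (0.58) and lower against all remaining stroma (-0.44).

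In the IGF axis, 7 of 14 genes tested were higher and 3 lower when restricted (9 and 4 of 15 against all). Igfbp2 was at 379 and 174 CPM in the gated stroma, with replicate 1 above replicate 2, and at 68.5 and 65.4 CPM in the remaining stroma (2.06 ± 0.09 (SE)). Igfbp5 was lower, at 421 and 183 against 893 and 858 CPM (-1.52 ± 0.06 (SE)), again with replicate 1 above replicate 2. The ligand gene Igf1 was lower (6.53 and 10.6 against 37.4 and 47.8 CPM), and Igf2 was at 634 and 548 against 557 and 512 CPM, a restricted difference of 0.17 that was 1.04 against all remaining stroma. The receptor gene Igf1r (0.35 and 0.71 against all and restricted) was higher in both.

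Chemokine and growth factor genes were higher in 7 of 17 and lower in 3 when restricted, 9 and 5 of 23 against all. Cx3cl1, a membrane-bound chemokine, was at 35.6 and 35.7 against 8.84 and 4.35 CPM (2.42 ± 0.24 (SE)), and Cxcl12, the ligand of Cxcr4, at 361 and 342 against 212 and 173 CPM (0.89 ± 0.07 (SE)). With only the limits on Epcam, Pecam1 and Top2a made equal, Cxcl12 differed by -0.0443. Cxcl16, from outside the list, was at 41.2 and 46.4 against 9.94 and 8.30 CPM, Cxcl13 at 45.2 and 32.7 against 14.0 and 14.4 CPM and the vessel-stabilising ligand Angpt1 at 43.7 and 70.7 against 23.0 and 24.5 CPM. For these genes both gated libraries lay above both remaining ones, a description, since they were picked from called genes. Ccl2 passed the test but rested on replicate 2, with 0.502 and 28.9 CPM against 4.05 and 2.17 CPM; in replicate 1 it was lower in the gated stroma.

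Of 13 ion channel genes tested when restricted, 3 were higher and 2 lower, against 9 and 3 of 16 in the comparison with all remaining stroma. The shares over all genes were 11.6% and 11.7% when restricted, and 17.0% and 19.4% against all. Kcnk3, from the same channel family as Kcnk2, was at 10.0 and 10.6 against 2.76 and 1.98 CPM (2.11 ± 0.44 (SE)), and Kcnd3 at 39.7 and 39.5 against 12.3 and 23.7 CPM (1.23 ± 0.19 (SE)). Kcnj8, a channel gene of pericytes, was called only against all remaining stroma (1.13; restricted 0.30, adjusted p = 0.1). In the list of peptidases, glutathione and eicosanoid enzymes, 5 of 11 were higher and 3 lower when restricted (6 and 3 of 15 against all). Hsd11b2 and Hsd11b1, which inactivate and regenerate active glucocorticoid, were at 16.1 and 18.3 against 4.05 and 3.16 CPM and 15.1 and 12.2 against 6.08 and 3.56 CPM. Gstm1, a glutathione transferase, was at 117 and 117 against 65.0 and 66.6 CPM. Ptgis, which makes prostacyclin, was lower when restricted, at 67.3 and 53.2 against 124 and 112 CPM, and not called against all remaining stroma (-0.10, adjusted p = 0.58).

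In the retinoic acid pathway, Rbp4, the retinol carrier, was at 74.8 and 77.6 against 12.7 and 16.4 CPM (2.43 ± 0.16 (SE)), and Rdh10, which oxidises retinol, at 58.7 and 70.7 against 26.9 and 24.7 CPM (1.33 ± 0.15 (SE)). Aldh1a2, which completes retinoic acid synthesis, was lower at 71.8 and 57.0 against 305 and 283 CPM (-2.15 ± 0.10 (SE)). The binding protein gene Crabp2 had 1 and 3 UMIs in the gated stroma and 68 and 92 in the remaining stroma. Of the pathway list 2 of 12 were higher and 3 lower when restricted, and 7 and 3 of 14 against all, beside 11.6% and 11.7% of all genes when restricted and 17.0% and 19.4% against all.

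Most of the matrix genes fixed as a list were called. Against all remaining stroma 30 of 35 were higher and 4 lower, with a median log2 fold change of 1.34 beside -0.03 over all genes. When restricted, 21 were higher and 9 lower, with a median of 0.40 beside -0.01. Fbln5, needed for elastic fibres, was at 611 and 569.6 against 195 and 176 CPM (1.70 ± 0.07 (SE)), Col14a1 at 706 and 784 against 250.0 and 254 CPM (1.58 ± 0.06 (SE)) and Tnc, tenascin-C, at 251 and 246 against 65.7 and 70.9 CPM (1.89 ± 0.09 (SE)). The collagen VI chains Col6a1 (1.18) and Col6a2 (1.27), the basement membrane chain Col4a1 (1.03), Smoc2 (1.48) and the proteoglycan Dcn (0.96) were higher as well. Vcan was lower in both forms (-1.19 and -1.20), and Fbln2 also (-1.13 and -2.30). Mgp, Postn, Mfap5 and Col15a1 were higher against all remaining stroma and lower when restricted. Their restricted values were -0.81, -0.23, -0.35 and -0.49.

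Of 27 stromal transcription factor genes tested when restricted, 6 were higher and 7 lower, against 14 and 8 in the comparison with all remaining stroma (over all genes 11.6% and 11.7%, and 17.0% and 19.4%). Zeb2 was at 1018 and 1019.7 against 365 and 403 CPM (1.44 ± 0.05 (SE)) and the imprinted gene Peg3 at 2066 and 1627 against 898 and 744 CPM (1.19 ± 0.04 (SE)). Tcf21, needed for stromal and glomerular development, was at 684 and 611 against 367 and 346 CPM (0.89 ± 0.06 (SE)), and Hoxd10 and Hoxd11, of the posterior Hox group that patterns kidney mesenchyme, differed by 0.86 and 0.78. The zinc finger gene Sall1 was lower at 11 and 9.89 against 33.7 and 28.8 CPM, and Lef1, a nuclear effector of Wnt signalling, at 8.03 and 16.7 against 30.4 and 34.8 CPM. Meis1, a broad stromal factor, was higher against all remaining stroma (0.50) and lower when restricted (-0.31).

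Genes of the 2 neighbouring stromal zones were mixed. Of 9 nephrogenic-zone genes outside the rule, Clca3a1, Tnc and Sfrp1 were higher and Dlk1, Aldh1a2, Fibin and Meis1 lower when restricted; against all remaining stroma 5 of 11 were higher and 4 lower. Fibin was at 44.7 and 52.5 against 183 and 191 CPM. Of 14 medullary genes outside the rule, Zeb2 and Acta2 were higher and 7 were lower when restricted, while against all remaining stroma 6 were higher and 6 lower. Over all genes 11.6% were higher and 11.7% lower when restricted, and 17.0% and 19.4% against all. Penk, which encodes the enkephalin precursor, was at 360.0 and 385 against 685 and 763 CPM when restricted (-0.93) but was called higher against all remaining stroma (0.17, adjusted p = 0.041). Nkd1, an inhibitor of Wnt signalling, likewise went from 0.56 against all to -0.34 when restricted. Genes lower in both forms included Shisa3 (-1.24 and -0.94 against all and restricted) and Cdkn1c, a brake on the cell cycle (-1.75 and -1.04). Wnt4, a Wnt ligand of medullary stroma and early nephrons, was at 87.4 and 104 against 90.8 and 187 CPM. It was lower in each library, although the values overlapped across libraries (-0.43, edgeR adjusted p = 0.00011). Against all remaining stroma, the sign of Wnt4 changed with thinning and with only the limits on Epcam, Pecam1 and Top2a made equal.

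Genes of pericytes, mesangium and mural cells were higher in part. Lepr, the leptin receptor gene, was at 63.3 and 40.3 against 12.9 and 13.4 CPM (2.02 ± 0.18 (SE)), and Epas1, the hypoxia-inducible factor of renal pericytes, at 86.4 and 79.8 against 27.2 and 23.5 CPM (1.73 ± 0.14 (SE)). Pdgfrb was at 162 and 141 against 99.4 and 91.3 CPM and Cygb at 168 and 151 against 134 and 114 CPM. In that list 5 of 13 were higher and 1 lower when restricted, and 9 of 14 were higher against all. Of 10 mesangial markers 8 were higher and 1 (Serpine2) lower when restricted, and 7 were higher and 1 lower against all. The restricted higher ones included Itga8 (0.68), Hopx (1.18) and Des (0.36). Of 9 mural markers 5 were higher when restricted and 7 against all. Acta2, smooth muscle actin, was at 1962 and 1782 against 1031 and 1049 CPM (0.87 ± 0.04 (SE)), and Tagln at 962 and 904 against 404 and 529.6 CPM (1.04 ± 0.05 (SE)). Summed mesangial markers were at 4488 and 4721 against 4381 and 3806 CPM and mural markers at 4496 and 4206 against 2645 and 2681 CPM.

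Signalling lists gave smaller groups. Of 16 Wnt genes 4 were higher and 7 lower when restricted, but 7 were higher and 6 lower against all remaining stroma. With only the limits on Epcam, Pecam1 and Top2a made equal, 6 were higher and 4 lower, where 14.3% of all genes were higher, 13.0% lower and 27.3% called in either direction. The balance of the list thus depended on the comparison group. The antagonist gene Dkk3 was higher (54.2 and 46.4 against 18.0 and 21.1 CPM) and Dkk2 lower (6.53 and 13.7 against 25.8 and 29.0 CPM). Of 17 BMP and TGF-beta genes 7 were higher and 3 lower when restricted, and 8 and 4 of 21 against all, with Tgfb1 higher (73.8 and 54.8 against 29.5 and 21.7 CPM) and Tgfb3 lower (10.0 and 12.2 against 32.8 and 48.8 CPM). Of the PDGF receptor and ligand genes 2 of 5 were higher and 1 lower when restricted, and 3 and 3 of 6 against all. Both receptor genes were higher, Pdgfra by 0.38, and the ligand gene Pdgfc was lower (4.02 and 3.80 against 29.5 and 30.4 CPM, -2.89). Of 11 Notch pathway genes, 1 was called in edgeR when restricted (1 higher and 5 lower of 15 against all). It was the target Hes1, lower, at 77.8 and 73.0 against 105 and 90.9 CPM (-0.36, adjusted p = 0.0071). Rbpj in the restricted groups was at 29.1 and 23.6 against 27.1 and 22.9 CPM (adjusted p = 0.77). The receptor gene Notch3 was higher against all remaining stroma (0.98, adjusted p = 6.6e-05) but not called when restricted (0.32, adjusted p = 0.31).

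Of 19 cell cycle genes 13 were lower when restricted, and 16 were lower and 1 higher against all. With only the limits on Epcam, Pecam1 and Top2a made equal, 6 were lower and 13 not called, against 13.0% of all genes lower. All restricted barcodes met the limit on Top2a, and its part in these counts was not tested. Ccnd1, the cyclin of growth factor response, was at 54.7 and 60.1 against 178 and 207 CPM (-1.71 ± 0.10 (SE)), and Ccnd2 at 391 and 368 against 770.4 and 707 CPM (-0.94 ± 0.06 (SE)), although Ccnd2 was not called against all remaining stroma (0.04). Mki67 was at 3.01 and 28.1 against 44.4 and 37.5 CPM, with the gated stroma of replicate 2 close to the remaining stroma. Immediate early and heat shock genes, which can respond to dissociation, were lower in 3 of 13 when restricted (lower in 7 and higher in 1 of 14 against all). The restricted called share was close to the 23.3% of all genes. Egr1 was at 48.2 and 68.4 against 127 and 151 CPM. The median share of mitochondrial UMIs was 5.11% and 5.25% in the restricted gated stroma and 5.16% and 5.66% in the restricted remaining stroma.

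**Figure D3:**
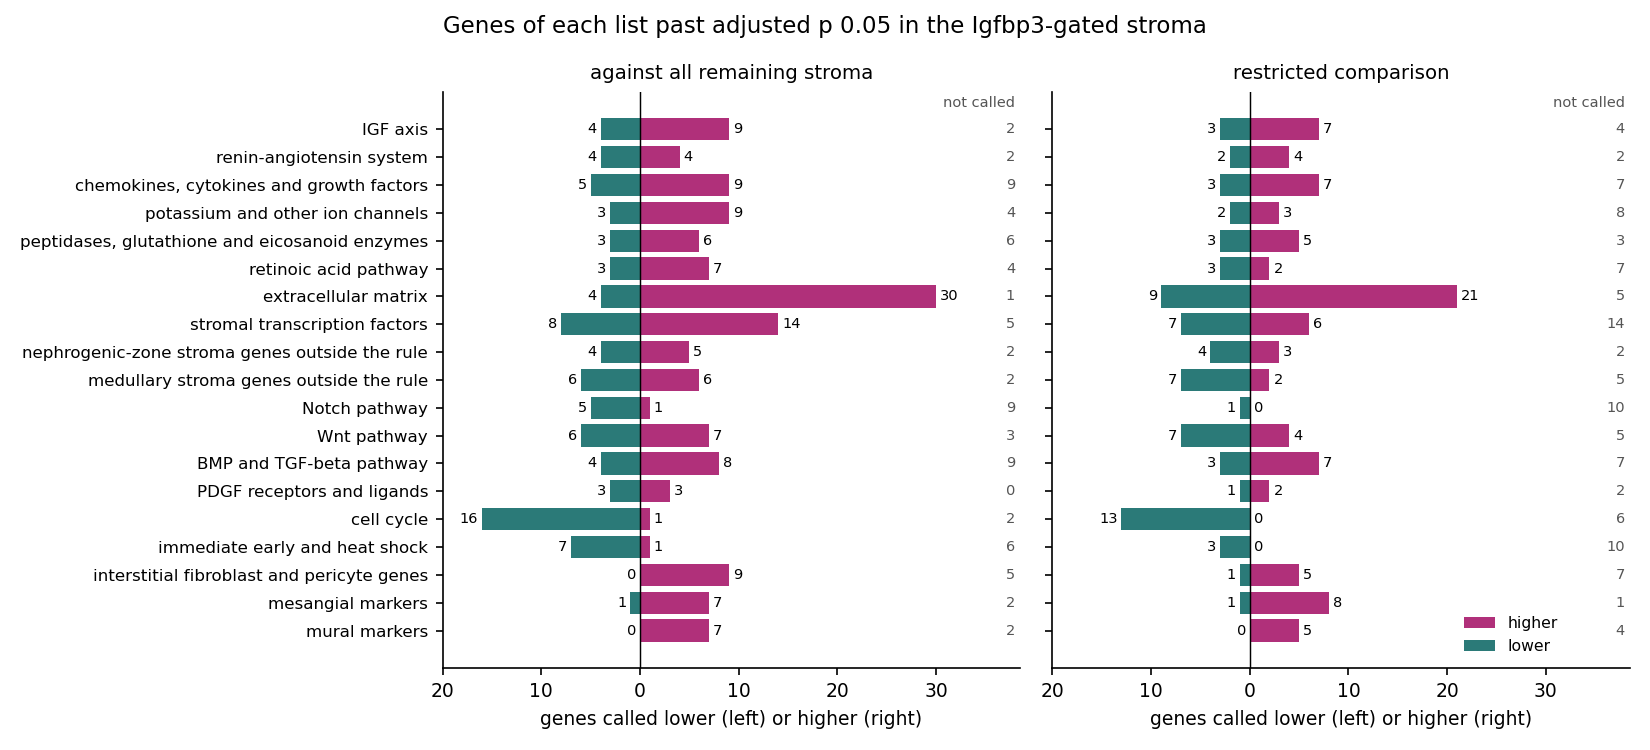
Number of genes of each list called higher (bars to the right) or lower (to the left) in the Igfbp3-gated stroma at adjusted p under 0.05, against all remaining stroma and in the restricted comparison, with the number not called in grey. The matrix list has 30 higher genes in the left panel and 21 in the right, and the cell cycle list has 16 and 13 lower genes.

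Within the stroma that met all other limits, the levels of several genes outside the rule changed with the number of marker UMIs, a description with no test. Barcodes just outside the limit, with 2 marker UMIs, numbered 34 and 37, and those just inside, with 3, numbered 35 and 20. Agtr1a was at 18.9 and 21.5 CPM just outside, 38.9 and 24.0 CPM just inside and 168 and 149 CPM in the 40 and 23 barcodes with 20 or more. Lepr went from 9.05 and 8.93 CPM in barcodes with no marker UMI to 141 and 71.7 CPM in those with 20 or more, and Cxcl12 from 133 and 114 to 551 and 512 CPM. Thbs2 went from 44.3 and 30.8 to 399 and 696 CPM and Col14a1 from 229.9 and 232 to 983 and 999 CPM. In the other direction, Aldh1a2 went from 160.2 and 123 to 27.1 and 35.8 CPM and Penk from 786 and 840.4 to 111 and 25.6 CPM. Tcf21 went from 573 and 510.0 to 722 and 732 CPM, a smaller ratio than that of the other genes named. Except for Tcf21, each of these genes was nearer in barcodes with 3 UMIs to its level at 2 UMIs than to its level at 20 or more, in both libraries. The bin with no marker UMI also held podocyte signal, with Podxl at 246 and 308 CPM there and between 0 and 8.14 CPM in the other bins, except for 170.3 CPM at 4 UMIs in replicate 2. The bins were therefore recomputed without barcodes that carried markers of other cell types, which brought Podxl to 4.06 and 8.05 CPM at 0 marker UMIs. Thbs2 then went from 47.7 and 35.7 to 397 and 687 CPM, Cxcl12 from 90.3 and 80.5 to 547 and 518 CPM, Lepr from 10.1 and 10.4 to 142 and 73.9 CPM and Penk from 869.8 and 928 to 114 and 26.4 CPM. With every barcode included, the median depth was between 7743 and 9585 UMIs in every bin.

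**Figure D4:**
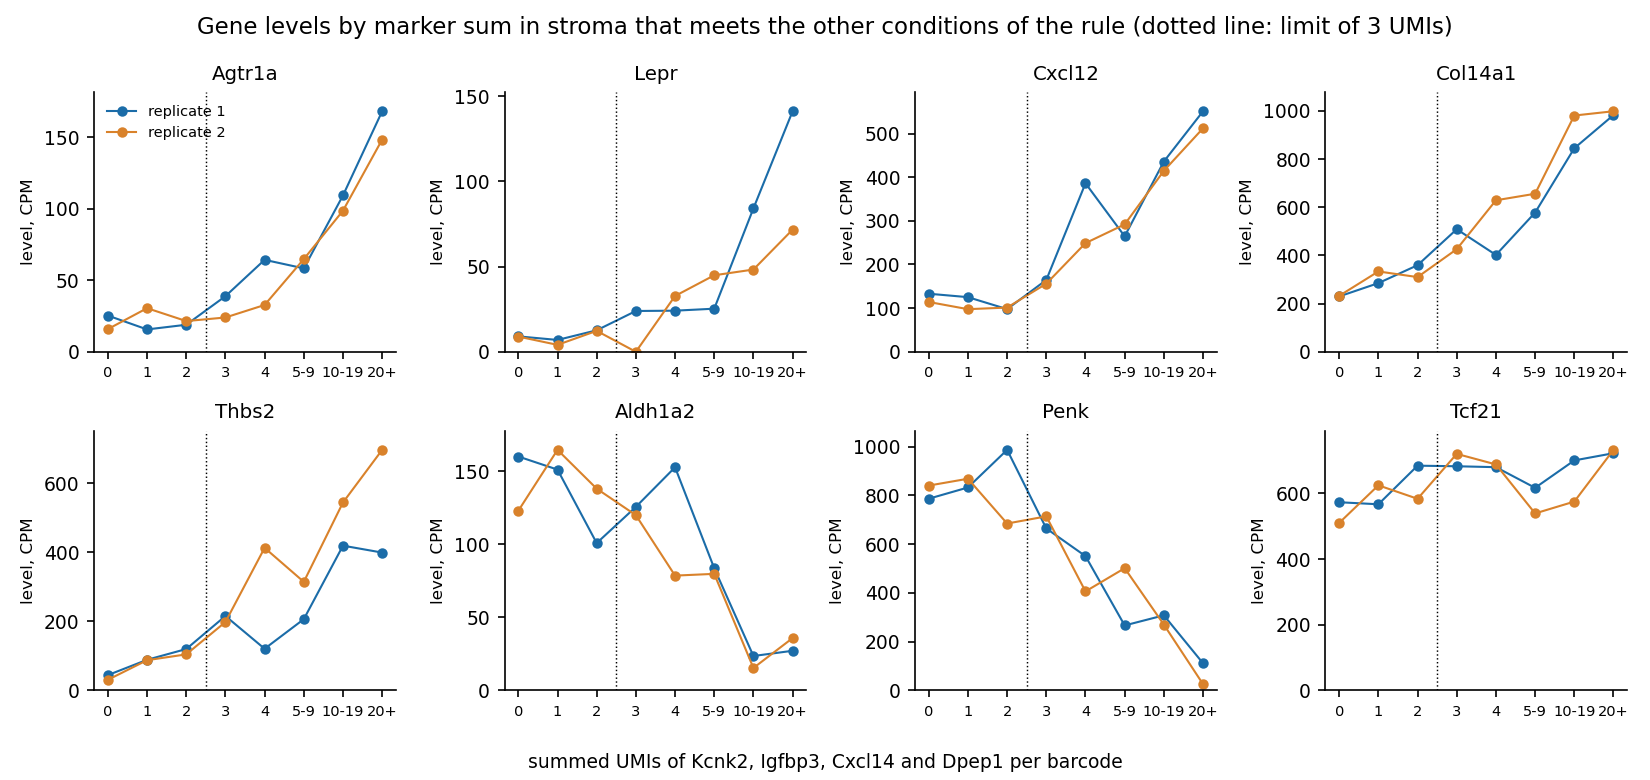
Level (CPM, y axis) of 8 genes outside the rule by the summed UMIs of Igfbp3, Cxcl14, Kcnk2 and Dpep1 (x axis), 1 line per library, with the limit of the rule dotted. Agtr1a, Lepr, Cxcl12, Col14a1 and Thbs2 are highest at 20 or more UMIs or in the bin before it, Aldh1a2 and Penk are lowest there, and Tcf21 differs by the smallest ratio between the first and last bins.

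Stroma with other markers was compared next. Barcodes with at least 3 UMIs of Foxd1, Ntn1, Rspo3, Scx and Gdnf and few of the other sets (the Foxd1-set gate) numbered 238 and 231. Markers of other cell types were found in 41.2% and 28.6% of them, those of podocytes in 88 and 50 barcodes. Foxd1 is also known from podocytes, so the restricted form with 140 and 165 barcodes is described. In it 1498 of 10198 genes were higher (14.7%) and 1520 lower (14.9%), 29.6% in either direction, in the Igfbp3-gated stroma (without the restriction 1944 of 11486, 16.9%, and 2056, 17.9%, 34.8% in all). Rbp4 had 149 and 102 UMIs in the gated stroma and 0 in the Foxd1-set gate, at least 74.0-fold higher with a floor of 3 UMIs over the group. Hhip (at least 34.2-fold), Adam12, a metalloprotease (at least 31.5-fold), C7 (at least 25.4-fold), Scube2 (at least 24.2-fold) and Adora2b (at least 22.1-fold) were also at 0 there. Without the restriction the largest lower values were of Crb2 (at least 73.6-fold), Myzap (at least 29.9-fold), R3hdml, Nebl, Pcp4 and Lmx1b.

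Most matrix genes were higher against the Foxd1-set gate too. Col14a1 was at 706 and 784 CPM in the Igfbp3-gated stroma and 5.73 and 7.85 CPM in the Foxd1-set gate, and Dcn at 715 and 1001 against 22.2 and 32.0 CPM. Of 34 matrix genes tested 30 were higher and 3 lower, with a median of 1.83 beside -0.02 over all genes. Without the restriction 31 of 35 were higher and 1 lower, with a median of 2.53 beside -0.05. Aldh1a2 was at 71.8 and 57.0 against 592 and 555 CPM (-3.14 ± 0.11 (SE)), Igfbp5 at 421 and 183 against 1709 and 1727 CPM and Fibin at 44.7 and 52.5 against 303 and 340.1 CPM. Agtr1a was at 90.9 and 77.6 against 5.01 and 1.31 CPM (4.72 ± 0.32 (SE)). Cxcl12 was at 361 and 342 against 273 and 211 CPM, higher by 0.53, but lower (-0.61) without the restriction. Igfbp6 (-5.80), Cadm1 (-5.08), Crabp2 (-4.65), Aox3 (-4.04), Actr3b (-3.94) and Pdgfc (-3.83) had the largest lower values.

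Barcodes with at most 1 UMI of each of the 4 marker sets (the unmarked gate) numbered 186 and 169 in all and 163 and 154 when restricted. In the restricted form 1070 of 10198 genes were higher (10.5%) and 990 lower (9.71%), 20.2% in either direction, against 879 (7.65%) and 791 (6.89%), 14.5% in either direction, of 11486 without the restriction. Agtr1a was at 90.9 and 77.6 CPM in the Igfbp3-gated stroma and 23.5 and 23.3 CPM in the unmarked gate (1.87 ± 0.21 (SE), adjusted p = 8.4e-09), Rbp4 at 74.8 and 77.6 against 1.35 and 6.76 CPM and Smoc2 at 70.8 and 153 against 6.05 and 6.01 CPM. Nrxn3, a neurexin, and Sult1a1, a sulfotransferase, were also among the largest, the first with 44 and 41 UMIs against 3 and 0 and the second with 80 and 44 against 6 and 2. Mfap5 and Postn, which were lower against the restricted remaining stroma, were higher here (2.60 and 2.13). Penk was at 360.0 and 385 against 854 and 927 CPM (-1.24 ± 0.08 (SE)). Summed mesangial markers were at 4488 and 4721 CPM in the Igfbp3-gated stroma and 4451 and 4406 CPM in the unmarked gate. Mural markers summed to 4496 and 4206 against 3318 and 2991 CPM. The largest lower values were of Actg2, smooth muscle gamma actin (-3.70), Fbxl22 (-3.02) and the mitotic genes Cdca8, Cenpa, Birc5 and Ckap2 (between -2.80 and -2.47). Without the restriction they included Pcp4, R3hdml, Nebl, the podocyte gene Podxl and Neat1 (between -4.64 and -3.94), and podocyte markers exceeded the limit in 15 and 11 barcodes of the unmarked gate. Tcf21 was higher by 0.26, and Meis1 was not called (-0.08, adjusted p = 0.57). A gate on Cck, Corin, Nts and Fzd10 held 26 and 19 barcodes and one on Clec3b and Dpt 3 and 7, so neither reached the minimum of 20 in each library for a fit.

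The members differed among themselves by the marker they carried. Those with at least 3 UMIs of Cxcl14 numbered 34 and 35, and those with at least 2 UMIs of Kcnk2 and Dpep1 together and no Cxcl14 numbered 78 and 35. Most members, 121 (51.9%) and 93 (57.1%), belonged to neither subset. The subset with Cxcl14 was not free of the other markers, since 52.9% and 37.1% of its barcodes held Kcnk2 and 50% and 8.57% Dpep1. The subsets were set after the data were seen and their genes are a description with no test. On a log2(CPM + 5) scale, 188 of the 14080 genes with a UMI in a subset (1.34%) were over 2 times higher with Cxcl14 in both libraries and 179 (1.27%) over 2 times higher without it. Wnt4 stood at 463 and 420.1 CPM with Cxcl14 and 10.2 and 23.5 CPM with Kcnk2 or Dpep1 and no Cxcl14. Smoc2, a matrix protein that binds calcium, was at 369.8 and 551 against 26.3 and 20.1 CPM, and Penk at 702 and 931 against 114 and 73.8 CPM. Alx1, a homeobox gene, was at 176 and 229 against 23.4 and 47.0 CPM, Col15a1 at 232 and 343 against 19 and 70.5 CPM and Bmper, an extracellular BMP regulator, at 37.3 and 40.3 against 1.46 and 3.36 CPM. Wnt4, Alx1 and Penk belong to the medullary list. Of its 15 genes 7 were over 2 times higher with Cxcl14 in both libraries, none was over 2 times lower in both, and 8 met neither. Of the 6122 genes that averaged 20 CPM or more over the subsets, 76 (1.24%) were over 2 times higher with Cxcl14 in both libraries, and 6 of these were among the 11 list genes of that level. Shisa3 was lower with Cxcl14 in both libraries (41.1 and 3.36 against 70.2 and 94.0 CPM). Others of the 8 were Cdkn1c (807 and 1223 against 729 and 1168 CPM), Zeb2 (1348 and 1378 against 1121 and 1061 CPM) and Notum, which had no UMI in either subset.

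Other genes were higher in the subset with Kcnk2 or Dpep1. Ptn, which encodes the growth factor pleiotrophin, was at 2997 and 3679 CPM there and 369.8 and 158 CPM with Cxcl14. Dkk1, a Wnt antagonist gene, had 34 and 13 UMIs there and 0 with Cxcl14, and Ren1 had 12 and 11 UMIs against 0. Adamts5, a protease that cleaves aggrecan, was at 104 and 131 against 7.47 and 3.36 CPM and Adm, which encodes the vasodilator adrenomedullin, at 124 and 144 against 3.73 and 23.5 CPM. Agtr1a was at 123 and 104 against 105 and 63.8 CPM, on 84 and 31 against 28 and 19 UMIs. It was thus slightly higher with Kcnk2 or Dpep1 in each library, on few UMIs. Cxcl12 was at 436 and 439.7 against 542 and 423 CPM, and its order differed between the libraries. Rbpj was at 29.3 and 20.1 against 22.4 and 30.2 CPM, so its order differed between the libraries as well. The median depth was 7668.5 and 8563 UMIs with Cxcl14 and 8291 and 8691 UMIs with Kcnk2 or Dpep1. Since Cxcl14 was in 23.2% of members in replicate 1 and 32.5% in replicate 2, and Dpep1 in 54.1% and 35.6%, the make-up of the members differed between the libraries.

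**Figure D5:**
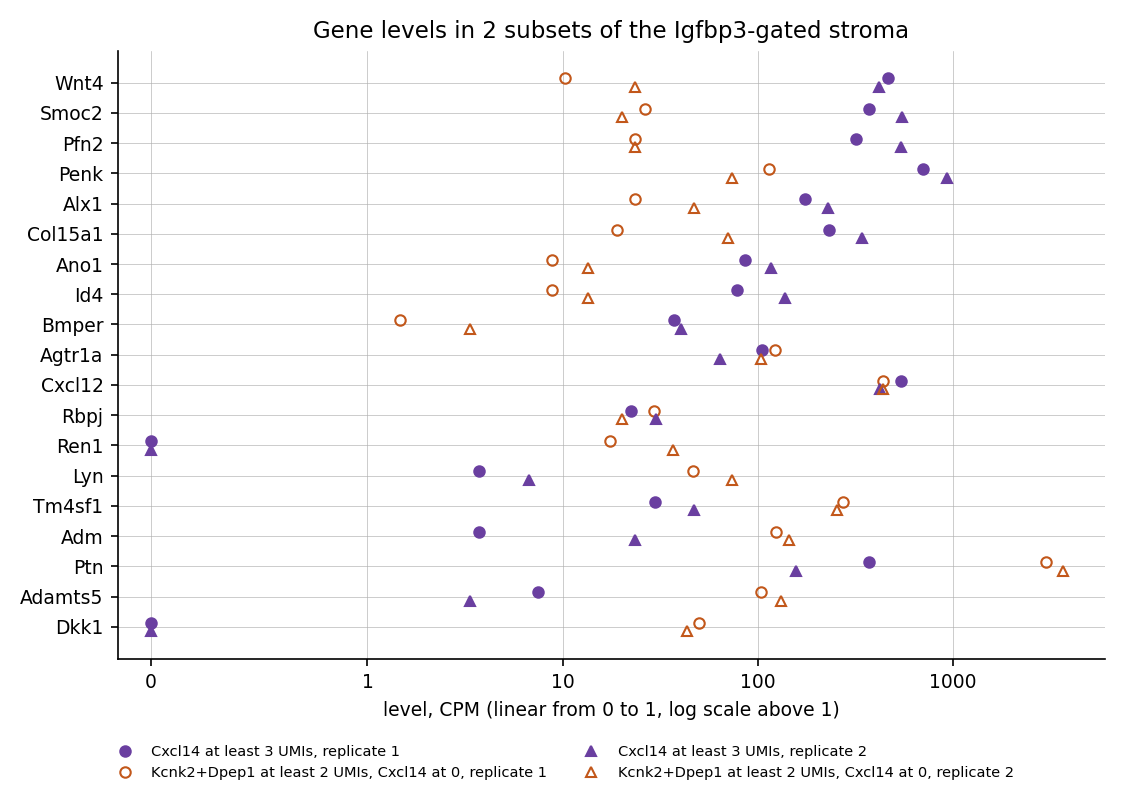
Level (CPM, linear up to 1 and logarithmic above) of 19 genes in members with at least 3 Cxcl14 UMIs (filled) and members with Kcnk2 or Dpep1 and no Cxcl14 (open), circles for replicate 1 and triangles for replicate 2. Wnt4 is at 463 and 420 CPM in the filled symbols, Ptn is higher in the open ones, and for Cxcl12 and Rbpj the order of the subsets differs between the libraries.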

How the data were processed

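The deposited matrices hold unique molecular identifier counts per gene and barcode that the authors made with Cell Ranger and the mm10 build (version 6.0.1 per the submitters' processing notes, while the file headers name Cell Ranger 4), unfiltered and not normalized. Barcodes with at least 2000 UMIs and at most 10% mitochondrial UMIs were kept, which left 6220 and 5149. No doublets were removed; Scrublet scores (scanpy 1.11.5) ranked barcodes for an alternative. Other cell types were gated from fixed markers and no clustering was done. The members and all gene lists were chosen with earlier results of these data known.

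Raw counts were summed per library and group. Genes outside the 21 rule genes were tested with edgeR 4.0.16 (quasi-likelihood, TMM scaling, low-count filter, library as block, Benjamini-Hochberg adjustment over all tested genes) in R 4.3.3. Where barcodes with markers of other cell types were left out, the genes of those 7 marker sets were not tested either. The comparison with remaining stroma used 4 sums, and the gates used 8 sums fitted together with the dividing stroma. Replicate numbers follow accession order. The library block pairs sums of the same library, since members and comparison cells come from the same sample. Levels are UMIs of a gene per 1000000 UMIs of a group (CPM), and intervals cover counting error only. Named genes were the 12 (for gates 6) largest called changes in each direction with at least 20 CPM and the same sign in both libraries, plus Agtr1a, Rbpj and list genes; a few genes that this rule selects are not reported here. The member subsets and the restricted comparison were added after seeing values.

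On counts simulated for the comparison with remaining stroma, 51% of 2-fold and 91% of 4-fold changes were recovered, with 3 false calls among 13185 unchanged genes. For the Foxd1-set gate these were 57% and 96%, with 10 among 11072. The simulation set the dispersion (spread beyond counting error) to 0.02, where the fits gave 0.00251 for the remaining stroma and 0.0057 for the gates. It held no library effect and no choice of cells by expression. These rates are therefore not those of the real fits. Alternatives covered DESeq2 1.42.0, its size factors, no low-count filter, no block, each library alone, other UMI, mitochondrial, marker and EYFP limits, Scrublet removal, thinning to 5000 UMIs and equal limits in both groups. The libraries held 163405630 and 135436576 UMIs. The replicate 1 and 2 sums are single samples, so no spread within a group beyond these 2 was available.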

Additional observations from a re-analysis of the deposited data

How the results depend on the processing

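Against all remaining stroma, 2248 genes were higher and 2572 lower; DESeq2 called 942 and 832, the 5% mitochondrial limit 1476 and 1551, thinning to 5000 UMIs 1228 and 1181, and the restricted comparison 1304 and 1322. Equal limits on Epcam, Pecam1 and Top2a alone gave 1561 lower genes. Against the Foxd1-set gate (1944 and 2056), DESeq2 called 1266 and 1088 and thinning 888 and 836. Against the unmarked gate (879 and 791), DESeq2 called 392 and 332 and the 5% mitochondrial limit 475 and 339. Without the replicate block the counts were 1714 and 1851, 1749 and 1838, and 654 and 597. Counts could not be recomputed without 1 library, which leaves no residual degrees of freedom. The share of members, 14.97% on average, became 17.98% with marked barcodes left out, 17.7% at a marker sum of 2 and 11.1% at 5, and lay between 13.9% and 16.1% for 1 library alone. The medullary comparison was not run, with 19 barcodes in replicate 2.

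Of the single-gene results under an alternative with a test, 1800 kept their direction and their side of the threshold, 61 kept the direction but were no longer called, 7 became called and 46 changed sign. With 1 library left out, which gives values and no test, 308 kept their sign and 6 changed it. The causes were not tested. Against all remaining stroma, the restricted comparison changed the sign of Ccnd2 (-0.94), Col15a1 (-0.49), Enpep (0.58), Meis1 (-0.31), Mfap5 (-0.35), Mgp (-0.81), Nkd1 (-0.34), Penk (-0.93), Postn (-0.23), Rbpj (0.10) and Serpine2 (-0.70). Leaving out marked barcodes alone changed Ccnd2 (-0.63), Enpep (0.69), Meis1 (-0.26), Mgp (-0.62), Nkd1 (-0.0187), Penk (-0.63), Rbpj (0.17) and Serpine2 (-0.78). Equal limits alone changed Ccnd2 (-0.40), Cxcl12 (-0.0443), Mgp (-0.17), Penk (-0.38), Serpine2 (-0.13) and Wnt4 (0.0414). Thinning changed Ccnd2 (-0.76), Col15a1 (-0.33), Meis1 (-0.30), Mgp (-0.43), Penk (-1.01), Serpine2 (-0.73) and Wnt4 (0.0776).

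A marker sum of 5 changed Ccnd2 (-0.18), Penk (-0.25) and Serpine2 (-0.28). Without a low-count filter Ccnd2 was -0.0059 and Serpine2 -0.0249 and after Scrublet removal -0.0376 and -0.0922. Leaving out 1 library in turn gave Ccnd2 between -0.0058 and 0.0753, Serpine2 between -0.0826 and 0.11, Ccl2 between -1.0 (without replicate 2) and 3.93, Ptgis between -0.25 and 0.0199 and Rbpj between -0.34 and 0.0198. Without the EYFP condition Ptgis became 0.18. Against the Foxd1-set gate Cxcl12 changed sign with thinning (0.92) and with marked barcodes left out (0.53). Against the unmarked gate Meis1, which was not called, lay between -0.0788 and 0.0925 with 1 library left out. It became -0.18 with thinning, -0.0157 at a marker sum of 5, -0.0847 with marked barcodes left out and -0.0058 after Scrublet removal. Agtr1a kept its direction and its call under every alternative with a test, in all 3 comparisons.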

Other observations

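Other genes with the same pattern between the member subsets are given as values with no test. In members with Cxcl14, Pfn2, an actin regulator, was at 317 and 541 CPM against 23.4 and 23.5 CPM with Kcnk2 or Dpep1 and no Cxcl14. Ano1, a calcium-activated chloride channel gene, was at 85.9 and 118 against 8.78 and 13.4 CPM, and Id4, an inhibitor of helix-loop-helix factors, at 78.4 and 138 against 8.78 and 13.4 CPM. In the other direction Tm4sf1 was at 29.9 and 47.0 against 274 and 255 CPM and the kinase gene Lyn at 3.73 and 6.72 against 46.8 and 73.8 CPM. These genes were picked after their values were seen.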
